A study of Homo sapiens with 3 samples.

Results

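Regulators of G-protein signalling (RGS proteins) switch off signals from G-protein-coupled receptors. They speed up the hydrolysis of GTP by the alpha subunit of the G protein, which returns to its resting state and rejoins the beta and gamma subunits. In cells of the blood several of them set how long a cell responds to chemokines and other chemoattractants. The genes described here are 10 RGS genes of THP-1 cells, taken as the 30 probe sets whose gene symbol in the platform table is exactly RGS1, RGS2, RGS3, RGS10, RGS12, RGS14, RGS16, RGS18, RGS19 or RGS20. They are 10 of 19775 genes on the arrays, and they were chosen by gene family after their signals on these 3 arrays were known, so their ratios below are a description. Of the 30 probe sets 20 were above the signal floor explained below on at least 1 array and 13 on all 3; by their brightest probe set all 10 genes were above it on at least 1 array and 8 on all 3.

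THP-1, an established line of human monocytic leukemia cells, has cells that become adherent and macrophage-like in phorbol myristate acetate (PMA), an activator of protein kinase C. There were 3 arrays, each from 1 culture: undifferentiated cells without PMA, cells named PMA 3 days and cells named PMA 8 days. The PMA 3 days culture received 200 nM PMA for 24 h and then 3 days of PMA-free medium, and the PMA 8 days culture received 200 nM PMA for 72 h and then 5 days of PMA-free medium. The growth medium held 10% serum, and medium with 2% serum came 16 h before RNA isolation; the labels do not say whether that step included the undifferentiated cells. The time in PMA and the time since PMA differed together between the PMA cultures and cannot be told apart. Each condition has 1 array, which limits the precision: neither a test nor an error between cultures can be given. "Higher" and "lower" below stand for 2-fold or more between the arrays compared, and smaller differences are given as values.

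Signals are in the linear units of MAS5, the array software that condenses the probes of a probe set into 1 value, and each gene is represented by its brightest probe set. Signals under a floor of 149.8 units, the median of all values outside control probe sets, were raised to it before ratios were taken, so a fold with 1 array at the floor bounds the true size from below and carries the words "at least". Each array had a trimmed mean near 1000 units, and 48.5% to 51.4% of its probe sets lay above the floor. The ratio of 3' to 5' signal was 1.36 to 1.49 for actin and 1.10 to 1.16 for GAPDH. Of the 8 monocyte and macrophage markers with a usable probe set, 6 were above the floor in undifferentiated cells and 7 on each PMA array. CD14 read 849.8 units in undifferentiated cells and 34195 and 22449 units after PMA. LYZ went the other way, at 62439 units in undifferentiated cells and 36591 and 23242.5 units after PMA. The transcription factor gene SPI1 was below the floor in undifferentiated cells, and FCGR1A on all 3 arrays. Of the 4 T cell markers, CD3D, CD3E and CD3G were below the floor on all 3 arrays, and CD2 was above it at PMA 3 days only, at 157 units. Some markers of other cell types were above the floor on all 3 arrays. They were PECAM1 (endothelial), COL1A1 (fibroblast), KRT18 (epithelial), CD79A (B cell) and HBB (erythroid). COL1A1 read 464 units in undifferentiated cells and 2337 and 1828 units after PMA. CDH5, VWF, EPCAM, CDH1 and MS4A1 were below the floor on all 3. Over all genes the median log2 ratio to undifferentiated was -0.12 at PMA 3 days and -0.07 at PMA 8 days, and that of the later to the earlier PMA array was 0.04. Where values follow each other below without a group name, they are undifferentiated first, PMA 3 days second and PMA 8 days last.

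Among the RGS genes chosen as members, the largest differences lay in those of the R4 subfamily, mostly small proteins that hold little more than the RGS domain. These R4 members were RGS1, RGS2, RGS3, RGS16 and RGS18. RGS genes outside the members were not sorted by subfamily, so R4 as a whole was not described. The sequences before the RefSeq transcription starts of the 4 members that mark the patterns below are shown for that reason: RGS1 and RGS2 were much higher after PMA, RGS18 was much lower, and RGS16 was low on 1 PMA array. They are the 250 bases before the start, 5′ to 3′ on the gene's strand, from RefSeq's GRCh38.p14 tables. Capitals mark matches on either strand to TATAAA (the TATA box), GGGCGG (the GC box), CCAAT (the CCAAT box) and GAGGAA (a core of sites for the transcription factor PU.1).
RGS1: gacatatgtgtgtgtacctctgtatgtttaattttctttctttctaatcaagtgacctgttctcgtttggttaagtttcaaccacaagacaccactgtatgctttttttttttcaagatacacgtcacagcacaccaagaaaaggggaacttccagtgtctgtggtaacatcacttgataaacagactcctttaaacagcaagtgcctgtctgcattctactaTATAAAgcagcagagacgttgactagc
RGS2: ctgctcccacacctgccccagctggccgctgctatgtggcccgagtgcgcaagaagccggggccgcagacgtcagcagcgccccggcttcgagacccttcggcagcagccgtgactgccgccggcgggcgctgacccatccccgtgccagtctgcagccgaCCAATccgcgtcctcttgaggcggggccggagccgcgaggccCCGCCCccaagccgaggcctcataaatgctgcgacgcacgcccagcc
RGS16: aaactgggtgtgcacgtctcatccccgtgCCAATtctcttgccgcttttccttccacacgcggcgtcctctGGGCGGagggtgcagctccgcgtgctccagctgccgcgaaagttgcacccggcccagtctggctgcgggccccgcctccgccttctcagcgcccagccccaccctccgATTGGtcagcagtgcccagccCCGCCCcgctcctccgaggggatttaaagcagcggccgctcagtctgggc
RGS18: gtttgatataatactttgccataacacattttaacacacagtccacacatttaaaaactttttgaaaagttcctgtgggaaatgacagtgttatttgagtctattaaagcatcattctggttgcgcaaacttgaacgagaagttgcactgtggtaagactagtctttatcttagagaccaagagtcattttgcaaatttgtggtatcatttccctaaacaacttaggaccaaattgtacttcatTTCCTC
The RGS1 window is chr1:192575523-192575772 on the plus strand, the RGS2 window chr1:192808789-192809038 on the plus strand, the RGS16 window chr1:182604390-182604639 on the minus strand and the RGS18 window chr1:192158212-192158461 on the plus strand.

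The 4 windows differed in base composition. G and C made up 39.2% of the RGS1 window and 34.8% of the RGS18 window, and 72.8% and 68.4% of those of RGS2 and RGS16; the median over 35116 RefSeq start windows was 58.0%, with the middle 50% of them between 46.4% and 68.0%. CpG occurred 3 times before RGS1 and 2 times before RGS18, against 28 times before RGS2 and 22 times before RGS16. RGS1, with the largest increase, and RGS18, with the largest decrease, thus both had AT-rich windows. The TATA box letters began 27 bases before the RGS1 start and were in 10.7% of all windows. The GC box letters, in 42.6% of all windows, began 47 bases before the RGS2 start and 179 and 50 bases before the RGS16 start. The CCAAT letters, in 32.0% of windows, began 89 bases before RGS2 and 221 and 71 bases before RGS16. The PU.1 core, in 23.6% of windows, occupied the last 6 bases before the RGS18 start, on the opposite strand. TGANTCA, a loose form of the AP-1 site in which N is any base, was in 6.57% of all windows. TGACGTCA, the cyclic AMP response element, was in 1.65%. Each was in 0 of these 4. These matches describe the letters of the windows only.

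At PMA 3 days, 3 of the 10 members were higher and 2 lower against the undifferentiated array. Of all 13306 genes that cleared the floor on either array, 10.4% were higher and 10.7% lower. The median log2 ratio of the members was 0.13, while single members ran from an increase of at least 177-fold to a decrease of 26.5-fold. At PMA 8 days 3 members were higher and 1 lower, where 9.83% and 8.49% of 13555 genes were, with a members' median of 0.31. All of the members past 2-fold belonged to the R4 subfamily, which is a statement about the chosen members and not about every R4 gene. The PMA comparisons share the undifferentiated array, so they are given side by side and not as independent results. In a bulk measurement, fewer cells with a transcript and less of it per cell cannot be told apart.

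**Figure D1:**
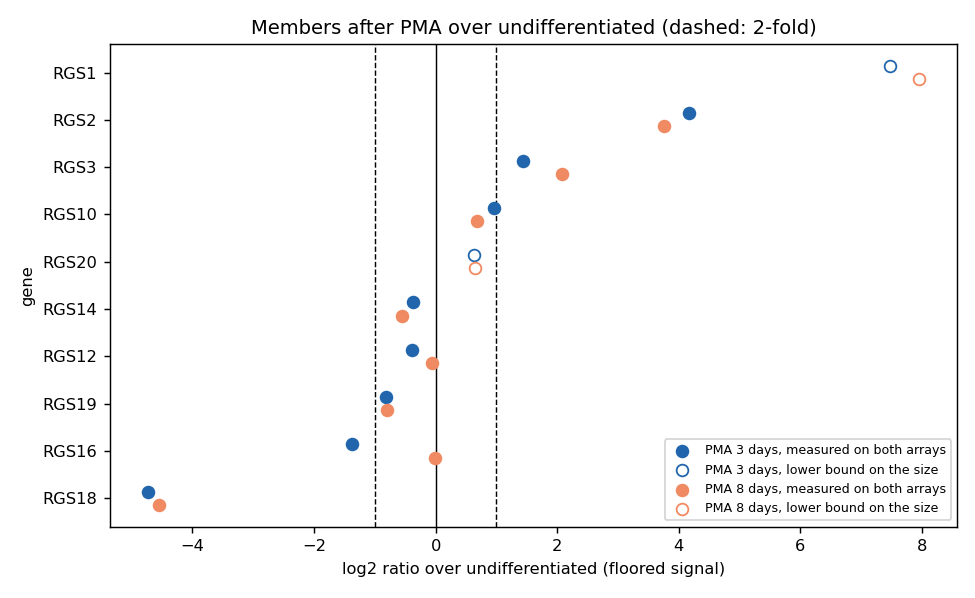
Log2 ratio over undifferentiated of the brightest probe set of each of the 10 members (1 point per PMA array; open points are lower bounds because the undifferentiated signal was under the floor; dashed lines are 2-fold). RGS1, RGS2 and RGS3 lie to the right of the 2-fold line at both times, RGS18 far to the left at both, and RGS16 to the left at PMA 3 days and at 0 at PMA 8 days.

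RGS1, a brake on chemokine receptor signals through Gi and Gq, was below the floor in undifferentiated cells at 109.7 units and read 26498 units at PMA 3 days and 36970 at PMA 8 days. Both PMA arrays were far above the undifferentiated one, by at least 177-fold and at least 247-fold, and PMA 8 days was 1.40-fold above PMA 3 days. A second probe set read 73.5, 5683 and 8646 units, at least 37.9-fold and at least 57.7-fold higher. The last read 33.2, 5.48 and 154 units and was above the floor only at PMA 8 days, and there by little. The probe sets above the floor thus shared the direction and not the size.

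RGS2, which acts mainly on Gq, was measured on all 3 arrays by its single probe set, at 1683 units in undifferentiated cells, 30161 at PMA 3 days and 22816 at PMA 8 days. Both PMA arrays were high, by 17.9-fold and 13.6-fold, and differed from each other by 1.32-fold. RGS3, which acts on Gi and Gq, read 442 units in undifferentiated cells, 1201 at PMA 3 days and 1861 at PMA 8 days. It was 2.72-fold and 4.21-fold higher. This rests on 1 of its 3 probe sets, since the others were below the floor on every array, at 14.2 to 79.8 units.

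RGS18, found mainly in blood cells and best known in platelets and megakaryocytes, had the largest decrease among the members. Its single probe set read 9013 units in undifferentiated cells, 340 at PMA 3 days and 387 at PMA 8 days. It was 26.5-fold and 23.3-fold lower, and both PMA signals stayed above the floor.

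RGS16, a regulator of Gi and Gq signals, read 728 units in undifferentiated cells, 282 at PMA 3 days and 721 at PMA 8 days. It was low on the PMA 3 days array alone, 2.58-fold under undifferentiated and 2.55-fold under PMA 8 days, and its PMA 8 days and undifferentiated signals differed by 1.01-fold. It was the 1 member past 2-fold between the PMA arrays, where 1.37% of 13051 genes were higher at PMA 8 days and 0.958% lower; 0 members were lower. A second probe set read 393, 224 and 509 units, a log2 ratio of -0.81 at PMA 3 days over undifferentiated, short of 2-fold, and of 1.19 at PMA 8 days over PMA 3 days. The last read 96.3, 64.8 and 181 units and was above the floor only at PMA 8 days. The low point at PMA 3 days was therefore seen by the 2 probe sets above the floor on all arrays, while the call against undifferentiated held for the brighter one only. As a yardstick, probe sets of 1 gene scattered in their log2 ratios with an SD of 0.43 between PMA 3 days and undifferentiated and of 0.27 between the PMA arrays (5180 genes); this spread holds no difference between cultures. The poly-A control transcripts, added to the RNA before labelling, had a median log2 ratio of 0.29 between PMA 3 days and undifferentiated and of -0.28 between PMA 8 days and PMA 3 days, against RGS16's -1.37 and 1.35. With the arrays scaled to these controls, RGS16 had log2 ratios of -1.66 and 1.67.

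**Figure D2:**
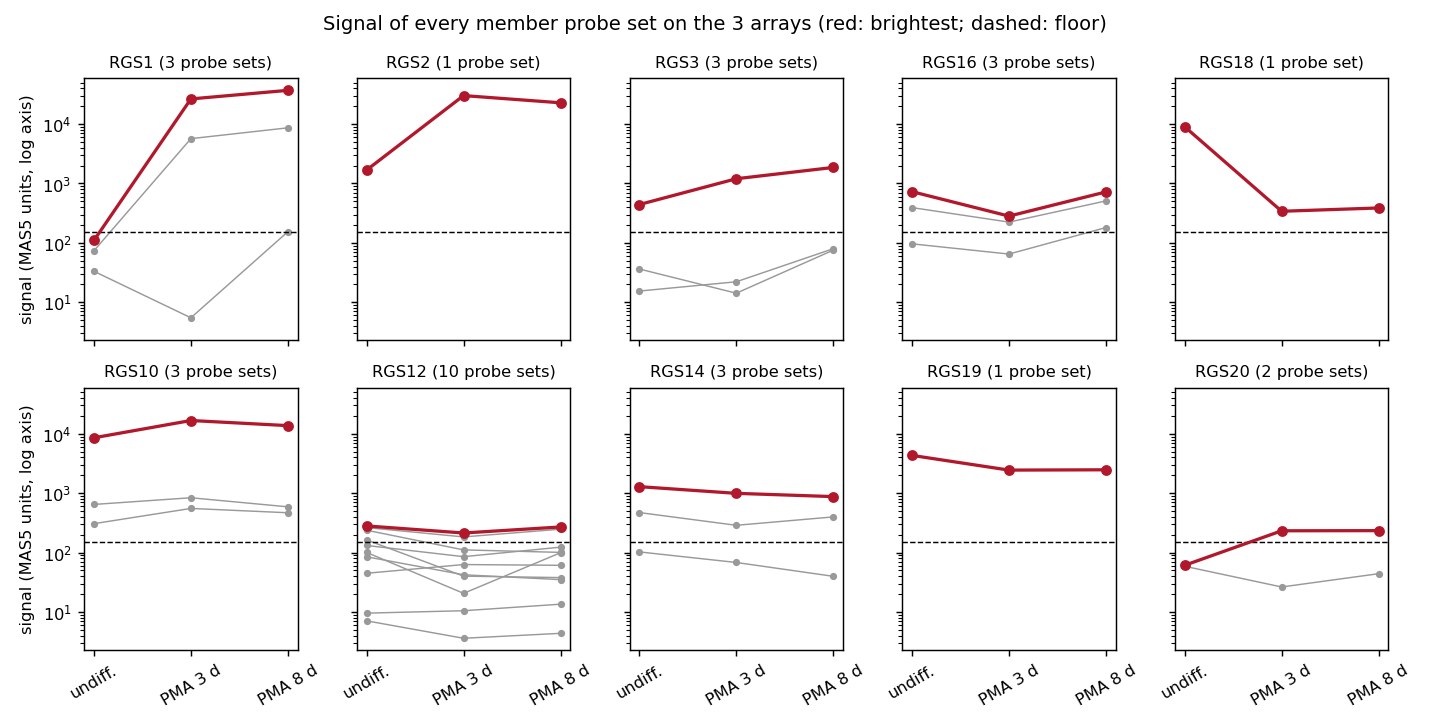
Signal in MAS5 units (log axis) of all 30 probe sets of the 10 members on the undifferentiated, PMA 3 days and PMA 8 days arrays (red is the brightest probe set of a gene, grey the others, dashed the floor of 149.8 units). RGS1 climbs from under the floor to 26498 and 36970 units, RGS18 drops from 9013 to 340 and 387, and RGS16 dips to 282 at PMA 3 days.

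The R12 subfamily had 0 of 3 members past 2-fold at either time. Of all genes above the floor on either array compared, 10.4% were higher and 10.7% lower at PMA 3 days. At PMA 8 days 9.83% were higher and 8.49% lower. With these shares, 0 of 3 does not set the subfamily apart. Its members RGS12 and RGS14 are large proteins that also carry Ras-binding domains and a GoLoco motif. RGS10, the short member of this subfamily, which acts on Gi and is abundant in microglia and other macrophages, read 8567 units in undifferentiated cells, 16741 at PMA 3 days and 13729 at PMA 8 days. It came closest to the threshold without reaching it, at 1.95-fold and 1.60-fold above undifferentiated. Its other probe sets read 647, 838 and 589.7 units, and 307, 554 and 469 units, log2 ratios of 0.37 and 0.85 at PMA 3 days and of -0.13 and 0.61 at PMA 8 days. They differed on the direction at PMA 8 days.

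RGS14 read 1289 units in undifferentiated cells, 994 at PMA 3 days and 876 at PMA 8 days, log2 ratios of -0.37 and -0.56. Its next probe set read 472, 288 and 399 units, log2 ratios of -0.71 and -0.24. RGS12 was dim, at 281, 214 and 270.2 units on its brightest probe set. Of its 10 probe sets 4 were above the floor on any array, and their log2 ratios at PMA 3 days over undifferentiated were -0.13, -0.39, -0.52 and -0.67. RGS12 and RGS14 thus had log2 ratios below 0 at both PMA times by each probe set above the floor, all short of 2-fold; that of RGS12 at PMA 8 days lay between -0.06 and 0.08 over the other floors, scalings and probe set rules.

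The RZ subfamily, which includes proteins that act on Gz, a relative of Gi, also had 0 members past 2-fold, 0 of 2. With the shares of all genes given for R12, this does not set it apart either. RGS19 read 4328 units in undifferentiated cells, 2448 at PMA 3 days and 2478 at PMA 8 days. Both PMA arrays were below the undifferentiated one, by 1.77-fold and 1.75-fold. Scaled to the poly-A controls its log2 ratio at PMA 3 days went from -0.82 to -1.12, past 2-fold. RGS20 was below the floor in undifferentiated cells at 61.2 units and read 233 and 234 units on the PMA arrays, at least 1.55-fold and at least 1.56-fold above undifferentiated, with the true size unknown. Its other probe set was below the floor throughout.

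RGS18, RGS1 and RGS2 are neighbours. In the RefSeq table for GRCh38.p14 they lie on chromosome 1 in a row of 5 RGS genes with no other protein-coding gene between them, in the order RGS18, RGS21, RGS1, RGS13, RGS2. RGS21 was not analysed here. RGS13, best known in B cells and mast cells and not among the 10 members, read 28.1 units in undifferentiated cells, 685 at PMA 3 days and 1701 at PMA 8 days, at least 4.57-fold and at least 11.4-fold higher. A second RGS13 probe set was above the floor at PMA 8 days alone, at 308 units. The last read 20.6, 9.61 and 41.9 units, below the floor on all 3 arrays. The RGS13 value at PMA 3 days therefore rests on its brightest probe set only. Of the B cell markers beside it, MS4A1 was below the floor on all 3 arrays and CD79A read 492, 348 and 425 units. So 3 adjacent genes, RGS1, RGS13 and RGS2, were higher at both PMA times by their brightest probe sets. RGS18 at the other end of the row was lower. Of all genes above the floor on either array compared, 10.4% were higher and 10.7% lower at PMA 3 days. At PMA 8 days 9.83% were higher and 8.49% lower. The members in this row were chosen with their signals known. The coding genes on either side, chosen for comparison after the values were seen, were BRINP3, below the floor on all arrays with at most 6.0 units, and UCHL5, at 7532, 5102 and 7026 units. RGS16 lies elsewhere on chromosome 1, beside RGS8, whose brightest probe set read 149.98, 76.5 and 145.7 units.

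**Figure D3:**
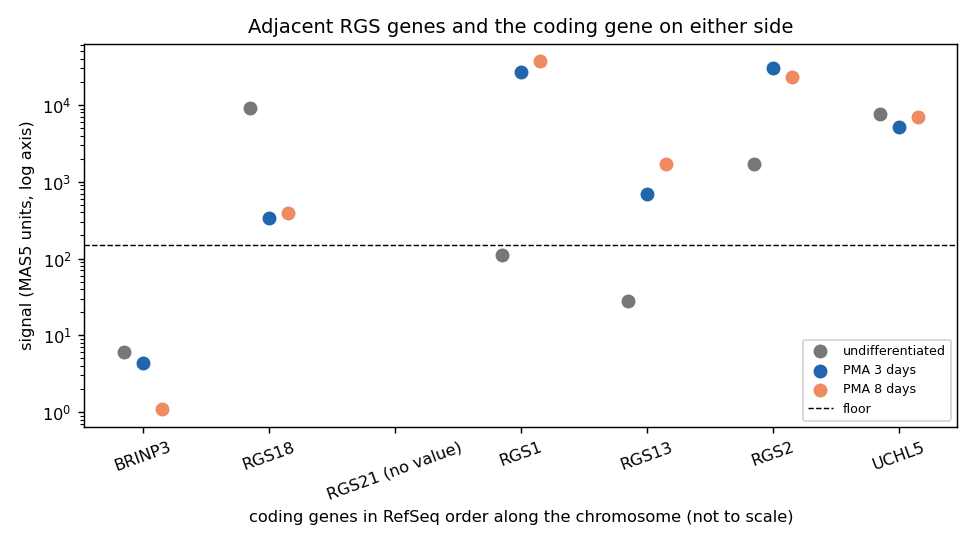
Signal in MAS5 units (log axis) of the adjacent RGS genes and of the coding gene on either side, in RefSeq order (1 point per array; dashed, the floor of 149.8 units; RGS21 has no value here). RGS1, RGS13 and RGS2 sit higher on both PMA arrays, RGS18 sits lower, and UCHL5 stays between 5102 and 7532 units.

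The other RGS genes were mostly dim. Of 11 in the list 10 had a probe set, and 3 were above the floor at PMA 3 days or in undifferentiated cells. RGS13 alone of these 3 was past 2-fold, where 10.4% of all genes were higher and 10.7% lower at PMA 3 days. The other 2 were RGS5, at 375, 430.4 and 404 units on its brightest probe set, and RGS8. Another RGS5 probe set, dimmer by mean signal but brighter in undifferentiated cells, read 466, 124 and 107 units. It was at least 3.11-fold lower at PMA 3 days, so that the probe sets of this gene disagreed. The remaining RGS5 probe sets were within 2-fold or below the floor on both arrays compared.

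The genes whose 3 floored log2 signals lay nearest to those of RGS1, by Euclidean distance over the 3 arrays, were TDO2 (distance 1.12), FN1 (1.26) and CD163 (1.37). Those nearest to RGS18 were F13A1 (0.42), PHACTR3 (0.69) and MEST (0.73). F13A1 read 7925, 441 and 376 units, against 9013, 340 and 387 for RGS18. With 3 arrays this likeness describes the signals only.

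The substrates and partners of the members were followed as lists. Of the 13 G protein alpha subunit genes, 3 were higher and 1 lower at PMA 3 days, with a median log2 ratio of 0.11, and 2 higher and 1 lower at PMA 8 days, with a median of 0.42. GNAI2 and GNAI3, substrates of most members, had log2 ratios of -0.17 and 0.27 at PMA 3 days and of 0.04 and 0.42 at PMA 8 days. GNAQ, the target of RGS2, had -0.30 and -0.57. GNA11, a relative of GNAQ, went the other way, with 0.85 and 0.82. The subunits past 2-fold were others: GNA13 (14588, 33890 and 25681 units) and GNA12 (2776, 6230 and 6874 units) were 2.32-fold and 2.24-fold higher at PMA 3 days. GNAL was at least 2.90-fold higher at PMA 3 days. GNA14, also a relative of GNAQ, was 2.27-fold lower at PMA 3 days and 3.72-fold lower at PMA 8 days. GNAI2, GNAI3, GNAQ and GNA11 were thus within 2-fold of undifferentiated on these arrays, and GNA14 was not. GNAI2, GNAI3, GNAQ and GNA11 were picked with their values known and do not stand for the substrates as a set. Of all genes above the floor on either array compared, 10.4% were higher and 10.7% lower at PMA 3 days. At PMA 8 days 9.83% were higher and 8.49% lower.

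Of 14 beta and gamma subunit genes above the floor at PMA 3 days or in undifferentiated cells, 2 were higher and 1 lower. Of 13 above it at PMA 8 days or in undifferentiated cells, 2 were higher and 2 lower. The shares of all genes to set beside each list here are 10.4% higher and 10.7% lower at PMA 3 days. For PMA 8 days they are 9.83% and 8.49%. GNG11 went from 146 to 3267 and 4160 units, at least 21.8-fold and at least 27.8-fold higher, and GNG12 was 2.78-fold and 4.04-fold higher. GNB5, the beta subunit that pairs with RGS proteins of the R7 subfamily, was 3.67-fold and 2.54-fold lower. The list medians were -0.05 and -0.09. Other proteins with an RGS homology domain had 0 genes higher and 1 lower at each time, of 11 and 12 above the floor on either array compared. The 1 was the receptor kinase GRK6, 2.25-fold and 2.06-fold lower. Among 9 other regulators and arrestins 0 were higher, and 1 was lower at PMA 3 days and 2 at PMA 8 days. GPSM2, a GoLoco protein that binds Gi, was lower by 3.96-fold and 2.05-fold, and NUCB2 by 2.03-fold at PMA 8 days.

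Among 16 effector genes 1 was higher and 3 lower at PMA 3 days, and 3 and 3 at PMA 8 days, with medians of -0.13 and -0.24. The shares of all genes were 10.4% higher and 10.7% lower at PMA 3 days, and 9.83% and 8.49% at PMA 8 days. PLCB2, a phospholipase switched on by G proteins, read 273, 542 and 1159 units and was 4.25-fold higher at PMA 8 days. PLCB1 was 2.08-fold lower there, and PLCB3 had a log2 ratio of -0.57. Of the adenylyl cyclase genes, ADCY6 was 2.53-fold and ADCY8 at least 2.24-fold higher at PMA 8 days, and ADCY1 was 2.07-fold lower. ADCY9 was 2.17-fold lower at PMA 3 days. PREX1, a Rac activator that answers to beta and gamma subunits, was 2.57-fold and 3.02-fold lower, and PIK3R5, a regulatory subunit of PI3-kinase gamma, was 2.83-fold higher at PMA 3 days, while PIK3CG, the catalytic subunit of the same kinase, was 2.14-fold lower there.

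Receptors upstream went both ways. Of 53 receptor genes listed, 46 had a usable probe set. Of 38 myeloid G-protein-coupled receptor genes above the floor at PMA 3 days or in undifferentiated cells, 12 were higher and 7 lower, with a median of 0.19. Of 39 above it at PMA 8 days or in undifferentiated cells, 12 were higher and 6 lower, with a median of 0.25. Among all genes above the floor on either array compared, 10.4% were higher and 10.7% lower at PMA 3 days. At PMA 8 days these shares were 9.83% and 8.49%. CCR2, the monocyte chemokine receptor, read 20869, 468 and 541 units. FPR3, a formyl peptide receptor, read 109.7, 7203 and 3551 units, and the complement receptor genes C5AR1 and C3AR1 read 116, 5107 and 3500.2 units and 228, 5267 and 3734 units. CCR2 was thus low on both PMA arrays, and the other named receptors were high on both.

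**Figure D4:**
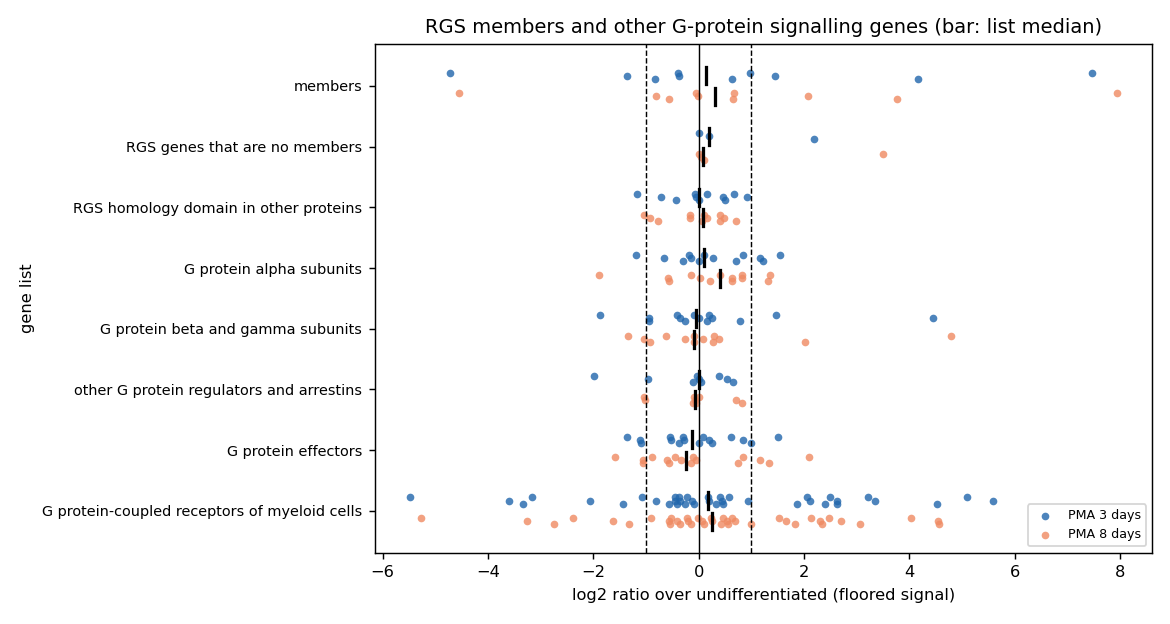
Log2 ratio over undifferentiated of each gene above the floor on either array compared, in the members and in 7 lists of other G-protein signalling genes. Each gene has 1 point per PMA array, blue for PMA 3 days and orange for PMA 8 days. Bars are list medians and dashed lines 2-fold. Single members and receptors reach furthest in both directions. In each list, the members included, other genes lie between the 2-fold lines.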

How the data were processed

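Total RNA was labelled with biotin, 200 ng per array, per the labels' protocols. The intensity values, as deposited, were made by the authors with MAS5 per the submitters' processing notes; its settings and version are not given in the sources used here. A check showed a linear scale and, once 2% of the values at both ends were dropped, a mean of 1000 on each array; this scaling is read from the values only. Detection calls were not used here. Of 54675 probe sets 62 were controls; 41091 others had 1 gene symbol, 1801 several and the rest none, and 41037 matched the RefSeq table of GRCh38.p14 by Entrez ID, with 0 symbols changed. Probe sets with several genes were not used.

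A gene was its brightest probe set by mean signal. It entered a comparison if above the floor, the 50th percentile of the values outside controls, on at least 1 of the 2 arrays. Calls were 2-fold differences. Members and lists were chosen with earlier results of these data known; named genes were all members, up to 4 per list and PMA time with the largest ratios, and the 3 nearest to the members with the largest increase and decrease. Genes that a result turned on, such as the substrates and the flanking genes, were added after their values were seen. The calling was run on simulated arrays with 200 changed genes, all far above the floor and changed by well over 2-fold. It therefore says nothing about dim genes, ratios near 2-fold or differences between cultures. Python 3.11.15, numpy 2.4.6, pandas 2.3.3 and matplotlib 3.10.9 were used.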

Additional observations from a re-analysis of the deposited data

How the results depend on the processing

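No test was possible with 1 array per condition, and no paired analysis was possible because each condition has 1 sample. RGS1, RGS2 and RGS18 kept their direction and stayed past 2-fold against undifferentiated under each of 8 other floors, scalings and probe set rules, with log2 ratios at PMA 3 days of 5.25 to 7.92, 3.87 to 4.28 and -5.02 to -4.22. RGS2 and RGS18 have 1 probe set each and lay above the 40th and 60th percentile floors on every array. Those floors and the probe set rules therefore could not change their values. RGS3 kept log2 ratios of 1.15 to 1.58 at PMA 3 days. The median of its probe sets lay below the floor and gave no value. With the median of all probe sets 1 member was lower at PMA 3 days, as RGS16 stood at -0.81. Without probe sets ending in _s_at or _x_at 1 was lower there too, as the RGS16 probe set that remained was below the floor on both arrays and gave no value; 0 were then higher at PMA 8 days over PMA 3 days, with RGS16 at 0.27 or more. At a 3-fold threshold 1 was lower at PMA 3 days and 0 higher at PMA 8 days over PMA 3 days. At 1.5-fold 5 were higher and 3 lower at PMA 3 days, 5 higher and 2 lower at PMA 8 days, and 2 higher and 0 lower at PMA 8 days over PMA 3 days. The 40th percentile floor put RGS20 at a log2 ratio of at least 1.30, and centring put RGS10 at 1.09, both past 2-fold at PMA 3 days.

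Scaling to the poly-A controls moved the median of all genes from -0.12 to -0.38 at PMA 3 days over undifferentiated and from 0.04 to 0.33 between the PMA arrays. The share of higher genes among all calls went from 49.2% to 29.4% (59.2% after centring) and from 58.9% to 93.4%. Of 227 single member values under the alternatives, 31 moved by more than the SD between probe sets and 0 of the called ones changed sign. Some of the 227 could not move. As for RGS2 and RGS18, the other floors left RGS3, RGS10, RGS14, RGS16 and RGS19 unchanged, and the probe set rules left RGS19 unchanged. The share that stayed is therefore no measure of robustness.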
